A study of Homo sapiens with 12 samples.

Results

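The nuclear-encoded subunits of the respiratory chain were followed through the transcriptome of HK2 cells, an immortalised line of human proximal tubule cells. Members were the protein-coding genes, matched by Ensembl identifier, whose symbols mark subunits of complexes I to V (NDUFA, NDUFB, NDUFC, NDUFS, NDUFV, SDHA to SDHD, UQCR, CYC1, COX4I to COX8, ATP5F1, ATP5M and ATP5P), without assembly factors and pseudogenes. Of the 62703 genes listed, 90 were members, with 38 in complex I, 4 in complex II, 10 in complex III, 19 in complex IV and 19 in complex V. NDUFA4 and NDUFA4L2 were counted in complex IV, where the NDUFA4 protein resides. NDUFC2-KCTD14 and ATP5MF-PTCD1 are readthrough genes that share sequence with their parent genes, so their values are uncertain.

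RNA was sequenced in 12 libraries, with 3 libraries for each of 4 conditions. NG cells were kept in 5.5 mM glucose and carried a control vector, and the HG group was kept in 50 mM glucose. The si-FGF9 group was kept in 5.5 mM glucose and transfected with an siRNA against FGF9, a growth factor gene, and the HG + OE-FGF9 group was kept in 50 mM glucose with a lentiviral vector that overexpresses FGF9. In the text of the study, a passage describes mannitol for NG and an adenoviral vector for FGF9, which differs from the labels, so whether NG and HG were matched for osmolarity is not settled. A non-targeting siRNA is not described, so the siRNA and its transfection cannot be told apart in si-FGF9 versus NG. No vector is described for HG or si-FGF9. Glucose and the control vector therefore cannot be told apart in HG versus NG, nor the siRNA and the control vector in si-FGF9 versus NG. In HG + OE-FGF9 versus HG, FGF9 and its vector cannot be told apart either. The authors deposited TPM values, a length-corrected share of the transcripts of a library, which set each gene against the rest of its own library.

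The respiratory chain passes electrons from NADH (complex I) and succinate (complex II) through ubiquinone, complex III, cytochrome c and complex IV to oxygen, and complex V uses the proton gradient so formed to make ATP. All complexes but complex II combine subunits encoded in the nucleus with subunits encoded in mitochondrial DNA. Proximal tubule cells of the kidney depend on this pathway to drive solute transport, and cultured lines retain it to a variable degree.

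FGF9 was listed at 0 TPM in the 9 libraries of NG, HG and si-FGF9 and at 3.34, 4.03 and 3.82 TPM in HG + OE-FGF9, so the knockdown could not be checked at the RNA level. Keratins KRT8, KRT18 and KRT19, markers of epithelium, lay between 211 and 678 TPM in every library. Of the other epithelial markers, PAX8 was at 19.7 to 79.1 TPM and EPCAM at 3.95 to 31.3 TPM, but CDH1, which encodes E-cadherin, did not exceed 0.28 TPM. Moreover, 9 of 12 proximal tubule markers, among them LRP2 and CUBN, stayed under 1 TPM in every library. The summed level of the proximal tubule markers was 73.6 to 86.2 TPM in NG, 99.4 to 141 with HG, 177 to 197 with si-FGF9 and 84.7 to 93.0 with HG + OE-FGF9, nearly all of it from GGT1. The 4 endothelial markers did not exceed 0.10 TPM. CD68 (108 to 159 TPM) and LUM (9.10 to 84.0 TPM), usually markers of leukocytes and fibroblasts, were present in every library, and the summed fibroblast markers moved with the groups, from 62.4 to 89.2 TPM in NG to 17.1 to 40.9 with HG, 11.6 to 21.0 with si-FGF9 and 11.6 to 22.5 with HG + OE-FGF9. Their part in the results was not tested. In bulk RNA, fewer cells of a type and less RNA per cell cannot be told apart. Sequencing depth is unknown, since TPM keep no counts, and the labels do not say that the 3 libraries of a group came from separate cultures, so each p measures the spread between these libraries alone.

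The members made up a small share of each library that was larger outside NG. Their summed level was 19110, 19978 and 20036 TPM in NG, 26764, 26161 and 22867 TPM with HG, 27729, 27969 and 27269 TPM with si-FGF9 and 26812, 26700 and 27792 TPM with HG + OE-FGF9. The lowest library outside NG, the third of HG, lay above the highest NG library. The sum was 1.91% to 2.00% of the library in NG and 2.29% to 2.80% elsewhere, and the ratio of group means was 1.28 between HG and NG, 1.40 between si-FGF9 and NG and 1.07 between HG + OE-FGF9 and HG. By complex, the ratio of means for si-FGF9 versus NG was 1.47 in complex I, 1.41 in complex III, 1.38 in complex IV and 1.38 in complex V. Complex II went the other way, at 401 ± 34.4 TPM in NG, 342 ± 17.8 in HG and 325 ± 14.2 in si-FGF9 (SD, n = 3), with no overlap between NG and either group.

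**Figure D1:**
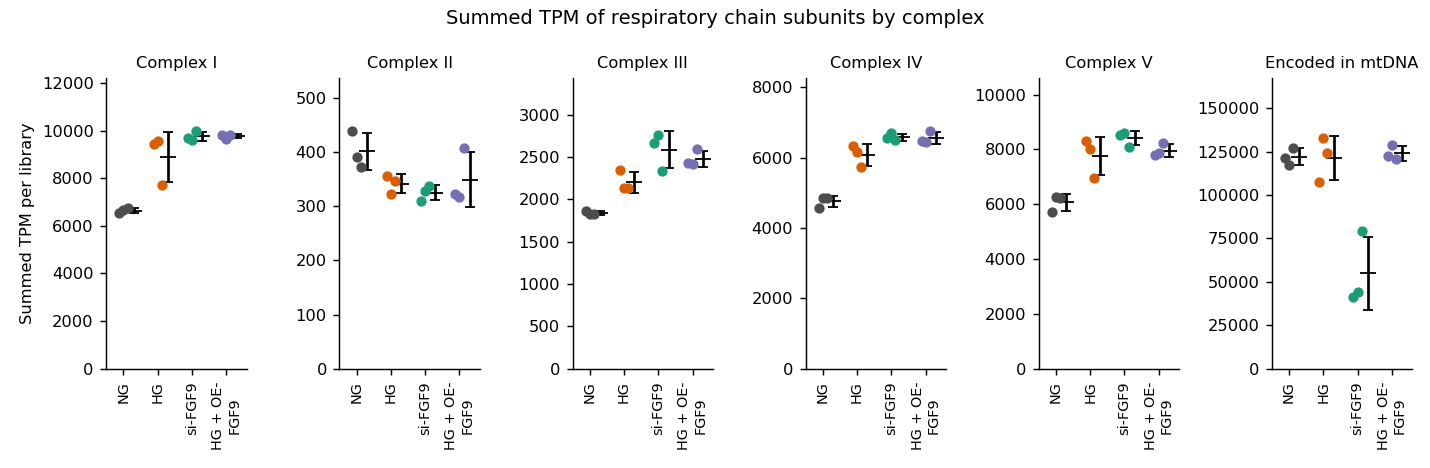
Summed TPM per library (y axes, each from 0) for the nuclear-encoded subunits of complexes I to V and for the subunits encoded in mitochondrial DNA; points are the 3 libraries of a group and bars are the mean ± SD. Sums of complexes I, III, IV and V lie above NG in every other library, complex II lies below NG in HG and si-FGF9, and the mitochondrially encoded sum is lowest in si-FGF9 (41422 to 79270 TPM).

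Of the 90 members, 85 reached 1 TPM in at least 3 libraries and were tested with limma across all 14639 such genes. Passing the filter used the values of all groups. The 5 members not tested were COX4I2, COX7A1, COX7B2, COX8C and ATP5MGL, isoforms or relatives of expressed subunits. COX4I2, COX7A1 and COX7B2 were listed at 0 in all 12 libraries, COX8C did not exceed 0.88 TPM and ATP5MGL did not exceed 0.20 TPM. The tested members are abundant and short, with a median level of 162 TPM against 7.52 TPM for all tested genes with an annotation and a median transcript of 1439 bases against 3244.

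High glucose was accompanied by higher relative levels of many subunits and lower levels of a few. In HG versus NG, 34 members were higher and 6 lower at an adjusted p (limma, Benjamini-Hochberg) under 0.05, where 8.53% of all genes tested were higher and 40.5% lower. The median log2 fold change of the members was 0.29, and that of all genes tested was -0.39. Called higher were 17 members of complex I, 4 of complex III, 6 of complex IV and 7 of complex V. Among the 6 lower members were NDUFA5, NDUFS1, SDHD, UQCRC2 and COX7A2L. Without the first NG library 3 members were lower, and the share of all genes in that fit is not given here. By the criterion of the study, which asks for a log2 difference of 1 or more either way and an unadjusted p under 0.01, 6 members were higher and 2 lower, against 1.65% and 22.7% of all genes.

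More members passed the test with si-FGF9, as did more of all genes, and the difference between the 2 comparisons was not tested. In si-FGF9 versus NG, 42 members were higher and 16 lower, where 11.6% of all genes tested were higher and 57.7% lower. The median of the members was 0.26 on the log2 scale, against -0.79 for all genes tested. By complex the counts of higher and lower members were 19 and 8 in complex I, 1 and 3 in complex II, 5 and 2 in complex III, 9 and 1 in complex IV, and 8 and 2 in complex V. By the study criterion 20 members were higher and 9 lower, against 5.36% and 42.2% of all genes. Both of these comparisons use the 3 NG libraries.

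Few subunits differed between HG + OE-FGF9 and HG, and the share called higher was close to that of all genes. In HG + OE-FGF9 versus HG, 4 members (4.71%) were higher and 0 lower by limma, where 4.82% of all genes tested were higher and 4.71% lower. By the study criterion 0 were higher and 1 lower, ATP5MF-PTCD1, against 2.94% and 2.67% of all genes. At an unadjusted p under 0.05 (limma) with no limit on the fold the counts were 16 higher and 1 lower, where 11.3% of all genes were higher and 16.9% lower. The median of the members was 0.06 on the log2 scale against -0.13 for all genes tested, and the median 95% interval of a member reached 0.35 to either side of its estimate. The 4 were the complex I accessory subunits NDUFB9, NDUFB10 and NDUFAB1 and the catalytic subunit ATP5F1B, NDUFB10 being named after its value was seen, as were NDUFB3, NDUFB11, SDHC, ATP5PB and ATP5MG below. No member was called without the first library of HG + OE-FGF9 (7 higher at an unadjusted p under 0.05), without the second (8 at that level) or in a fit on the 6 libraries compared (7 at that level), and 14 members were called higher without the second HG library. Without the third HG + OE-FGF9 library the counts were 7 higher and 4 lower. The shares of all genes in these fits are not given here, so these counts cannot be set against them.

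**Figure D2:**
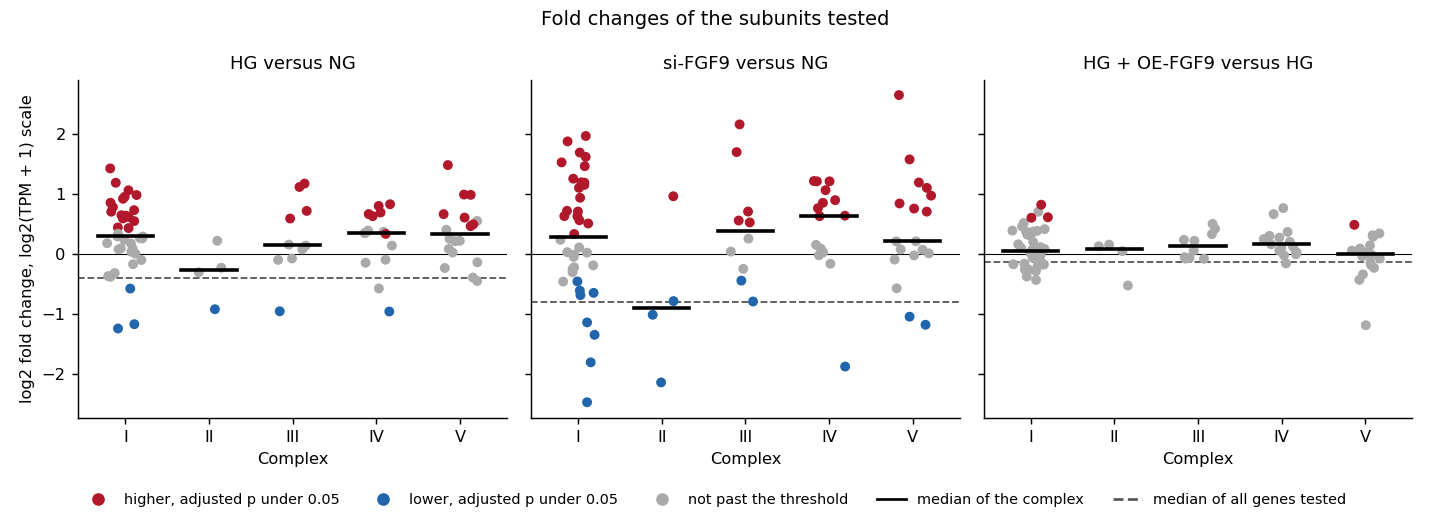
Log2 fold change on the log2(TPM + 1) scale (y axis) of each tested subunit by complex (x axis) in the 3 comparisons; red and blue points are higher and lower at an adjusted p under 0.05, grey points are not past it, the solid bar is the median of the complex and the dashed line the median of all genes tested. In HG versus NG 34 points are red and 6 blue, in si-FGF9 versus NG 42 and 16, and in HG + OE-FGF9 versus HG 4 and 0.

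The calls of many members, and the direction of some, changed with what the library was scaled to. On the deposited TPM the median of all genes tested lay below 0 in both comparisons with NG. The median of ratios brings it near 0 by its construction. With libraries scaled by the median of ratios, the median of all genes went from -0.39 to 0.01 in HG versus NG and from -0.79 to 0.00 in si-FGF9 versus NG, and the member counts became 61 higher and 3 lower, and 69 higher and 4 lower. On that scale 20.6% of all genes were higher and 22.7% lower in HG versus NG, and 31.3% and 32.5% in si-FGF9 versus NG. After a correction for GC content the counts were 60 higher and 1 lower, and 62 higher and 4 lower. Of all genes, 14.7% were higher and 16.0% lower in HG versus NG, and 26.2% and 31.3% in si-FGF9 versus NG. This correction, like the GC and length correction below, also recentres each library. The median of all genes after it was -0.01 in HG versus NG and -0.05 in si-FGF9 versus NG. Recentring and base composition therefore cannot be told apart in the calls after these corrections. Under 5 settings (the deposited TPM, the median of ratios, TPM without mitochondrially encoded genes, the GC correction and the GC and length correction), 24 members stayed higher in HG versus NG and UQCRC2 alone stayed lower. A GC correction with a replicate block, not among these 5, called 0 members lower in HG versus NG by limma (1 at an unadjusted p under 0.05). The share of all genes in that fit is not given here. In si-FGF9 versus NG 36 members stayed higher, and COX7A2L, NDUFS1 and SDHD stayed lower. The values below are those of the deposited TPM.

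**Figure D3:**
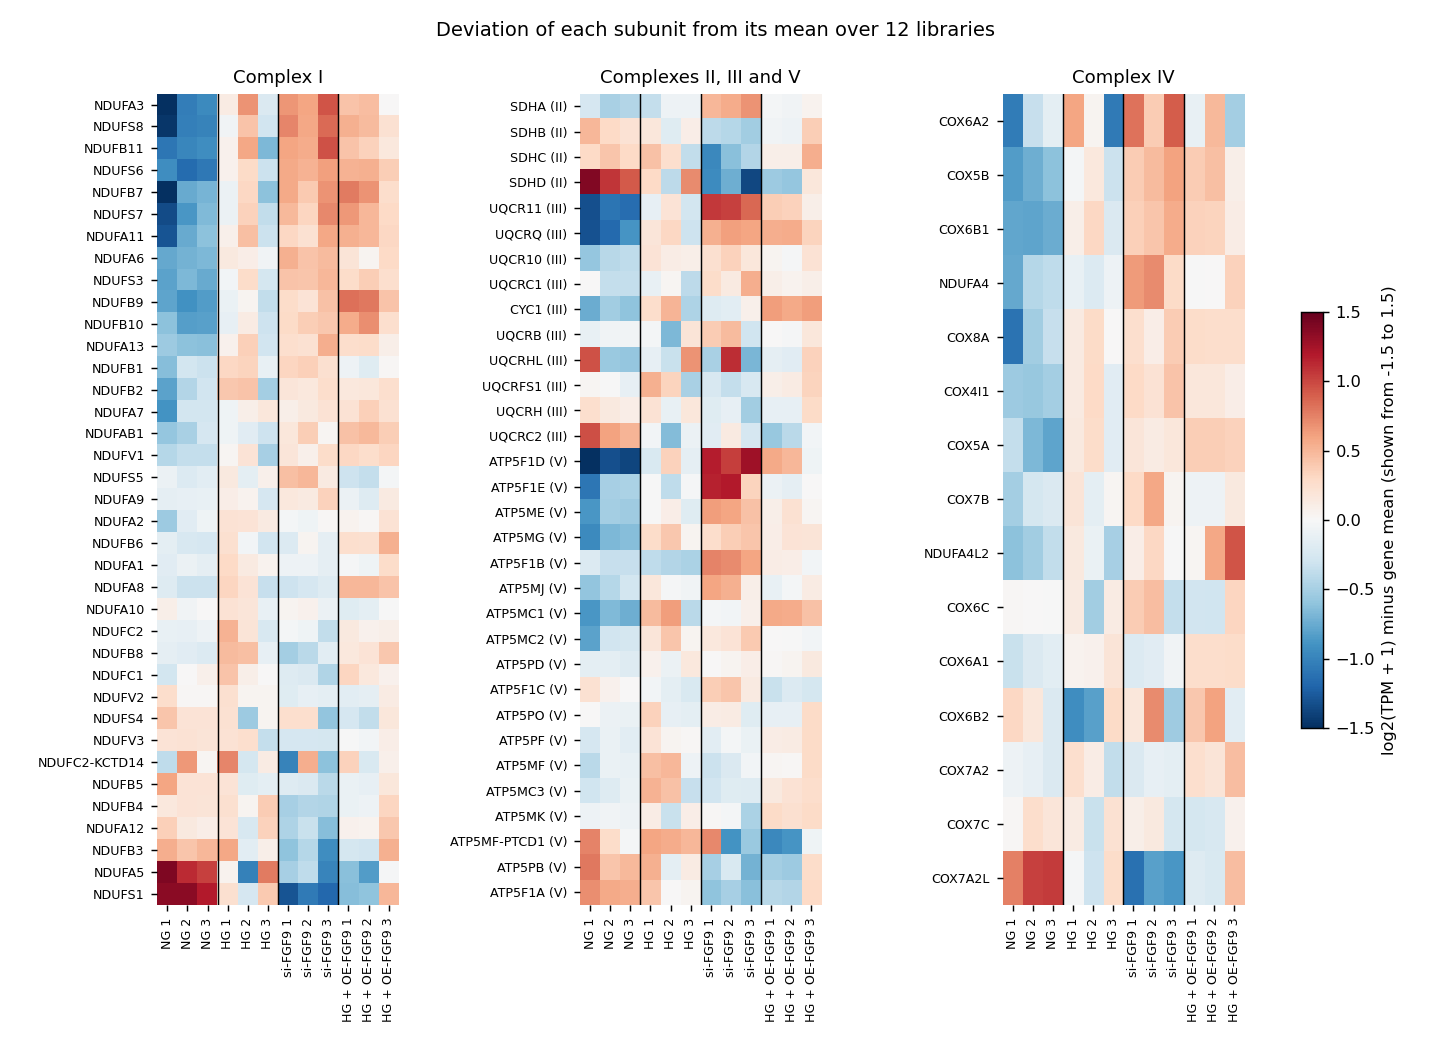
Deviation of 84 of the 85 tested subunits (rows, ordered within a complex by the si-FGF9 versus NG fold change) from its own mean over the 12 libraries (columns), in log2(TPM + 1), with colours limited to -1.5 and 1.5. Rows that are blue in the 3 NG libraries and red elsewhere, such as ATP5F1D, outnumber those with the opposite, among them NDUFS1, NDUFA5, SDHD, UQCRC2, COX7A2L, ATP5PB and ATP5F1A.

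Complex I takes electrons from NADH through a chain of iron-sulfur clusters held by 7 nuclear-encoded core subunits, which are surrounded by accessory subunits. The core subunits went in both directions. In HG versus NG 3 of 7 were higher and 2 lower, and in si-FGF9 versus NG 4 were higher and 2 lower. Of the 30 accessory subunits, 14 were higher and 1 lower in HG versus NG, and 15 were higher and 6 lower in si-FGF9 versus NG. Among all genes tested, 8.53% were higher and 40.5% lower in HG versus NG, and 11.6% and 57.7% in si-FGF9 versus NG.

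NDUFS1, the largest core subunit and a holder of iron-sulfur clusters, was the lowest member of all relative to NG in si-FGF9. NDUFS1 stood at 27.8, 27.8 and 24.8 TPM in the NG libraries, 12.3, 8.51 and 13.8 with HG, 3.59, 4.43 and 4 with si-FGF9 and 6.27, 6.42 and 14.9 with HG + OE-FGF9. All NG libraries lay above all others, and the si-FGF9 libraries lay below all others. It fell by 1.17 on the log2 scale in HG versus NG (SE 0.28, adjusted p = 0.00532, limma). It fell by 2.47 on the log2 scale in si-FGF9 versus NG (SE 0.28, adjusted p = 1.74e-05, limma). The HG call was lost after the GC correction (-0.28, adjusted p = 0.249, limma) and after the GC and length correction (-0.07, adjusted p = 0.810, limma), while the si-FGF9 call was kept under both (-1.09 and -0.91). Without the third HG + OE-FGF9 library NDUFS1 was lower with HG + OE-FGF9 than with HG, by a log2 fold change of -0.75 (adjusted p = 0.0231, limma), against -0.38 with it.

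NDUFS8 and NDUFS7, core subunits that carry iron-sulfur clusters near the ubiquinone end of the chain, moved the other way. NG held 58.5, 79.5 and 80.4 TPM of NDUFS8, HG 156, 218 and 133, si-FGF9 270.5, 242 and 293 and HG + OE-FGF9 235, 227 and 191. NDUFS8 rose by 1.19 on the log2 scale in HG versus NG (SE 0.19, adjusted p = 0.00104, limma). NDUFS8 rose by 1.88 on the log2 scale in si-FGF9 versus NG (SE 0.19, adjusted p = 1.03e-05, limma). Every NG library lay below every other library for both genes. NDUFS7 stood at 31.6, 44.5 and 51.6 TPM in the NG libraries, 77.3, 105 and 63.1 with HG, 116, 103 and 135 with si-FGF9 and 129, 116 and 101 with HG + OE-FGF9. NDUFS7 rose by 0.92 on the log2 scale in HG versus NG (SE 0.22, adjusted p = 0.00485, limma). NDUFS7 rose by 1.47 on the log2 scale in si-FGF9 versus NG (SE 0.22, adjusted p = 8.28e-05, limma). NDUFV1, which binds NADH and flavin, was between these extremes. NG held 67.5, 70.8 and 70.8 TPM of NDUFV1, HG 93.03, 105 and 64.4, si-FGF9 104, 96.3 and 111 and HG + OE-FGF9 114, 109.5 and 115. NDUFV1 rose by 0.56 on the log2 scale in si-FGF9 versus NG (SE 0.16, adjusted p = 0.00800, limma). In HG versus NG its groups overlapped through the third HG library, with a log2 fold change of 0.29 (adjusted p = 0.152, limma), and of 0.50 (adjusted p = 0.00256, limma) without that library. In HG + OE-FGF9 versus HG these 3 genes were called higher when the second HG library was left out, at 0.58 for NDUFS8, 0.71 for NDUFS7 and 0.54 for NDUFV1 (adjusted p of 0.0408, 0.0421 and 0.0402, limma), against 0.39, 0.52 and 0.39 with it. NDUFS7 was also called after the GC and length correction, at 0.59 (adjusted p = 0.0458, limma).

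Among the accessory subunits NDUFA3 had the largest rise and NDUFA5 the largest fall. NDUFA3 stood at 69.99, 113 and 119.8 TPM in the NG libraries, 253, 373 and 200.1 with HG, 369.5, 352 and 449 with si-FGF9 and 314, 319.5 and 234 with HG + OE-FGF9. All NG libraries lay below all others. NDUFA3 rose by 1.43 on the log2 scale in HG versus NG (SE 0.25, adjusted p = 0.00142, limma). NDUFA3 rose by 1.97 on the log2 scale in si-FGF9 versus NG (SE 0.25, adjusted p = 3.12e-05, limma). NG held 87.98, 72.01 and 67.9 TPM of NDUFA5, HG 33.9, 15.7 and 56.8, si-FGF9 22.8, 24.8 and 15.96 and HG + OE-FGF9 20.8, 17.9 and 32.5. NG lay above every other library, and HG spread from 15.7 to 56.8 TPM. NDUFA5 fell by 1.24 on the log2 scale in HG versus NG (SE 0.37, adjusted p = 0.0164, limma). NDUFA5 fell by 1.81 on the log2 scale in si-FGF9 versus NG (SE 0.37, adjusted p = 0.000934, limma). The HG call of NDUFA5 was lost without the first NG library (-1.13, adjusted p = 0.0603, limma) or the second HG library (-0.77, adjusted p = 0.0597, limma), and after the GC and length correction its value was 0.06 in HG and 0.08 in si-FGF9.

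NDUFAB1, the mitochondrial acyl carrier protein, and NDUFB9 were higher with HG + OE-FGF9 than with HG. NDUFAB1 stood at 65.3, 69.96 and 82.3 TPM in the NG libraries, 94.1, 87.4 and 79.1 with HG, 111, 127 and 100.4 with si-FGF9 and 134, 138 and 128 with HG + OE-FGF9. The 3 HG + OE-FGF9 libraries lay above all others. NDUFAB1 rose by 0.61 on the log2 scale in HG + OE-FGF9 versus HG (SE 0.14, adjusted p = 0.0163, limma). NDUFAB1 rose by 0.63 on the log2 scale in si-FGF9 versus NG (SE 0.14, adjusted p = 0.00120, limma). NG held 366, 336 and 354 TPM of NDUFB9, HG 591, 654 and 493, si-FGF9 768, 730.1 and 862 and HG + OE-FGF9 1123, 1098 and 857. NG, HG and si-FGF9 were separated in that order, and HG + OE-FGF9 reached past the si-FGF9 range in its first and second libraries. NDUFB9 rose by 0.71 on the log2 scale in HG versus NG (SE 0.14, adjusted p = 0.00224, limma). NDUFB9 rose by 1.16 on the log2 scale in si-FGF9 versus NG (SE 0.14, adjusted p = 2.43e-05, limma). NDUFB9 rose by 0.82 on the log2 scale in HG + OE-FGF9 versus HG (SE 0.14, adjusted p = 0.00453, limma). NDUFB10 was at 129, 154 and 114 TPM in HG and 209, 229 and 169 TPM in HG + OE-FGF9, a rise of 0.61 on the log2 scale (SE 0.15, adjusted p = 0.0260, limma). Without the first or the second HG + OE-FGF9 library the adjusted p (limma) was 0.0541 and 0.0514 for NDUFB9, and 0.0986 and 0.108 for NDUFAB1. The accessory subunits not named here ranged in si-FGF9 versus NG from -1.14 (NDUFB3) to 1.70 (NDUFB11) on the log2 scale.

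Complex II, succinate dehydrogenase, also works in the tricarboxylic acid cycle and has 4 subunits, all nuclear. SDHA, the flavoprotein that oxidises succinate, parted from the other subunits. SDHA stood at 105, 89.7 and 92.7 TPM in the NG libraries, 97.8, 119.6 and 119 with HG, 177, 185 and 201 with si-FGF9 and 123, 121 and 130.2 with HG + OE-FGF9. SDHA rose by 0.96 on the log2 scale in si-FGF9 versus NG (SE 0.12, adjusted p = 3.36e-05, limma). In HG versus NG its groups overlapped, with a log2 fold change of 0.22 (adjusted p = 0.159, limma). SDHA was called higher in HG by the median of ratios (0.74, adjusted p = 0.00448, limma) and after the GC correction (0.55, adjusted p = 0.00806, limma). By contrast, SDHB, the iron-sulfur subunit next to SDHA, was lowest in si-FGF9. NG held 144, 126 and 119 TPM of SDHB, HG 115, 90.02 and 109.9, si-FGF9 77.4, 75.8 and 70.7 and HG + OE-FGF9 98.8, 96.7 and 132. SDHB fell by 0.79 on the log2 scale in si-FGF9 versus NG (SE 0.15, adjusted p = 0.000621, limma). By the median of ratios SDHB was at 0.25 (adjusted p = 0.0583, limma), and after the GC correction it was at -0.05 (adjusted p = 0.670, limma), with no call. After the GC and length correction the fall was called (-0.57, adjusted p = 0.00097, limma).

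SDHC and SDHD anchor complex II in the inner membrane. SDHD stood at 105, 84 and 75.6 TPM in the NG libraries, 48.95, 29.8 and 65.3 with HG, 19.97, 23.3 and 14.7 with si-FGF9 and 26.8, 26.1 and 44.6 with HG + OE-FGF9. Every NG library lay above every other library. SDHD fell by 0.92 on the log2 scale in HG versus NG (SE 0.29, adjusted p = 0.0209, limma). SDHD fell by 2.14 on the log2 scale in si-FGF9 versus NG (SE 0.29, adjusted p = 4.93e-05, limma). The HG call of SDHD was lost without the first NG library (-0.79, adjusted p = 0.0823, limma), without the second HG library (-0.62, adjusted p = 0.0941, limma) and without the filter on low values (adjusted p = 0.0557, limma), and its HG value was 0.05 after the GC correction. SDHC, with 87.5 ± 4.20 TPM in NG and 43.3 ± 8.10 TPM in si-FGF9 (SD, n = 3), fell by 1.01 on the log2 scale in si-FGF9 versus NG (SE 0.22, adjusted p = 0.00119, limma), but was at 0.02 by the median of ratios (adjusted p = 0.947, limma), 0.31 after the GC correction and 0.50 after the GC and length correction, with no call. In HG + OE-FGF9 versus HG the 4 subunits ranged from -0.52 to 0.16, with 0 past the threshold in either direction by limma and 0 at an unadjusted p under 0.05.

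Complex III passes electrons from ubiquinol to cytochrome c. Its nuclear redox subunits are CYC1, cytochrome c1, and UQCRFS1, the Rieske iron-sulfur protein. NG held 73.3, 85.8 and 81.02 TPM of CYC1, HG 148, 176 and 89.04, si-FGF9 108, 110.4 and 129.7 and HG + OE-FGF9 190.4, 183 and 191. CYC1 rose by 0.72 on the log2 scale in HG versus NG (SE 0.20, adjusted p = 0.0126, limma). CYC1 rose by 0.53 on the log2 scale in si-FGF9 versus NG (SE 0.20, adjusted p = 0.0361, limma). NG lay below every other library, but the calls were not stable. In HG the adjusted p (limma) was 0.0559 without the second HG library, and in si-FGF9 it was 0.0530 to 0.113 when any of the 6 libraries compared was left out. UQCRFS1 stood at 28.7, 27.9 and 25.8 TPM in the NG libraries, 40.97, 35.6 and 19.8 with HG, 23.7, 21.6 and 23.7 with si-FGF9 and 29.9, 30.7 and 35.7 with HG + OE-FGF9. UQCRFS1 passed the threshold in no comparison of the deposited TPM, with log2 fold changes of 0.16, -0.25 and 0.06. It passed in HG versus NG without the third HG library (0.46, adjusted p = 0.0114, limma), and in si-FGF9 versus NG it was higher by the median of ratios (0.76, adjusted p = 0.0169, limma).

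The 2 core proteins of complex III, UQCRC1 and UQCRC2, which build its matrix side, also parted. NG held 160.1, 125 and 124 TPM of UQCRC1, HG 148, 163 and 122, si-FGF9 194, 176 and 235 and HG + OE-FGF9 171, 165 and 171. UQCRC1 rose by 0.56 on the log2 scale in si-FGF9 versus NG (SE 0.15, adjusted p = 0.00623, limma). Its HG libraries overlapped with NG, with a log2 fold change of 0.08 (adjusted p = 0.703, limma). By the median of ratios UQCRC1 was higher in HG (0.60, adjusted p = 0.0332, limma), and after the GC correction it was at -0.04 with no call. UQCRC2 stood at 107, 82.9 and 77.7 TPM in the NG libraries, 52.7, 34.1 and 50.8 with HG, 47.99, 59.3 and 45.4 with si-FGF9 and 36.2, 40.8 and 52.6 with HG + OE-FGF9. NG lay above every other library for UQCRC2. UQCRC2 fell by 0.96 on the log2 scale in HG versus NG (SE 0.21, adjusted p = 0.00345, limma). UQCRC2 fell by 0.79 on the log2 scale in si-FGF9 versus NG (SE 0.21, adjusted p = 0.00463, limma). The fall in si-FGF9 turned to 0.24 by the median of ratios, 0.18 after the GC correction and 0.25 after the GC and length correction, none of them past the threshold, while the fall in HG kept its direction and its call under each of these, but lost the call in the GC correction with a replicate block (-0.37, adjusted p = 0.0713, limma).

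Among the small accessory subunits of complex III, UQCR11 and UQCRQ rose most. NG held 75.7, 88.1 and 85.8 TPM of UQCR11, HG 174, 219.5 and 157, si-FGF9 397, 388 and 345 and HG + OE-FGF9 247, 242 and 201. The si-FGF9 libraries lay above all others and NG below all others. UQCR11 rose by 1.12 on the log2 scale in HG versus NG (SE 0.15, adjusted p = 0.000612, limma). UQCR11 rose by 2.16 on the log2 scale in si-FGF9 versus NG (SE 0.15, adjusted p = 2.90e-06, limma). UQCRQ was at 185 ± 27.8 TPM in NG, 424 ± 90.7 with HG, 601 ± 17.2 with si-FGF9 and 560 ± 48.3 with HG + OE-FGF9 (SD, n = 3), and it rose by 1.18 in HG and 1.70 in si-FGF9 on the log2 scale (adjusted p of 0.000694 and 8.54e-06, limma). UQCRH, the hinge protein, was at 694 ± 39.6 TPM in NG and 514 ± 74.8 in si-FGF9 and fell by 0.44 (adjusted p = 0.0210, limma), but was at 0.61 (adjusted p = 0.000671, limma) by the median of ratios, and the call was lost without the first NG (adjusted p = 0.0663, limma) or the third si-FGF9 library (0.0917). After the GC and length correction UQCRH was called lower in si-FGF9 (-0.52, adjusted p = 0.00967, limma). UQCRHL, an intronless copy of UQCRH, stayed between 0.07 and 2.72 TPM, and reads of the 2 genes may have been split. UQCR11 and UQCRQ were called higher in HG + OE-FGF9 versus HG without the second HG library, at 0.47 and 0.55 (adjusted p of 0.0415 and 0.0451, limma), against 0.33 and 0.42 with it.

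Complex IV, cytochrome c oxidase, reduces oxygen with subunits encoded in mitochondrial DNA, around which the nuclear-encoded subunits are arranged. In si-FGF9 versus NG 9 of its 15 tested members were higher and 1 lower, where 11.6% of all genes tested were higher and 57.7% lower. COX4I1, the regulatory subunit of most tissues, was high throughout. COX4I1 stood at 664, 652 and 678 TPM in the NG libraries, 1062, 1196 and 861 with HG, 1189, 1127 and 1299 with si-FGF9 and 1092, 1087 and 1037 with HG + OE-FGF9. COX4I1 rose by 0.63 on the log2 scale in HG versus NG (SE 0.12, adjusted p = 0.00205, limma). COX4I1 rose by 0.86 on the log2 scale in si-FGF9 versus NG (SE 0.12, adjusted p = 6.75e-05, limma). NG lay below every other library for COX4I1, COX5A and COX5B, subunits beside the catalytic core. NG held 174, 139.7 and 129 TPM of COX5A, HG 247, 271 and 199, si-FGF9 253, 243 and 252 and HG + OE-FGF9 289, 288 and 284. COX5A rose by 0.69 in HG and 0.77 in si-FGF9 on the log2 scale (adjusted p of 0.00260 and 0.000421, limma). COX5B stood at 126, 136 and 148 TPM in the NG libraries, 222, 253 and 181 with HG, 294, 316 and 343 with si-FGF9 and 296, 309 and 241 with HG + OE-FGF9. COX5B rose by 0.67 in HG and 1.21 in si-FGF9 (adjusted p of 0.00378 and 2.58e-05, limma), and in HG + OE-FGF9 versus HG it passed without the second HG library (0.48, adjusted p = 0.0492, limma) or the third HG + OE-FGF9 library (0.48, adjusted p = 0.0427, limma), against 0.37 with all.

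COX6B1, which faces cytochrome c, had the largest rise of complex IV in HG. NG held 555, 550.1 and 567 TPM of COX6B1, HG 1010.01, 1179 and 821, si-FGF9 1220.3, 1274 and 1394 and HG + OE-FGF9 1213, 1195 and 1032. COX6B1 rose by 0.83 on the log2 scale in HG versus NG (SE 0.13, adjusted p = 0.00106, limma). COX6B1 rose by 1.21 on the log2 scale in si-FGF9 versus NG (SE 0.13, adjusted p = 1.47e-05, limma). COX8A rose by 0.80 in HG and 0.90 in si-FGF9 on the log2 scale (adjusted p of 0.00332 and 0.000573, limma), and after the GC and length correction it was at 0.29 and 0.20 and did not pass. COX7B rose by 0.64 in si-FGF9 (adjusted p = 0.00342, limma) and was at 0.35 in HG (adjusted p = 0.0867, limma). By the median of ratios COX7B was higher in HG (0.87, adjusted p = 0.00187, limma). COX6A1 rose by 0.34 in HG (adjusted p = 0.0131, limma), a call lost without the first NG library (0.29, adjusted p = 0.0519, limma). In si-FGF9 COX6A1 was at 0.09, and by the median of ratios it was higher (1.14, adjusted p = 4.81e-05, limma). COX7A2 was at 0.14 in HG and -0.02 in si-FGF9, neither past the threshold, and in si-FGF9 at 1.03 by the median of ratios (adjusted p = 0.000412, limma). Without the third HG library it passed in HG, at 0.33 (adjusted p = 0.0215, limma).

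COX7A2L, which joins complexes III and IV into supercomplexes, was the lower member of complex IV in both comparisons with NG. COX7A2L stood at 78.5, 94.9 and 96.2 TPM in the NG libraries, 45.5, 37 and 56.1 with HG, 20.6, 25.9 and 24.7 with si-FGF9 and 40.1, 39.4 and 63.7 with HG + OE-FGF9. NG lay above every other library, and si-FGF9 below every other library. COX7A2L fell by 0.96 on the log2 scale in HG versus NG (SE 0.21, adjusted p = 0.00352, limma). COX7A2L fell by 1.88 on the log2 scale in si-FGF9 versus NG (SE 0.21, adjusted p = 1.64e-05, limma). After the GC correction the HG value was -0.20 (adjusted p = 0.334, limma) and the si-FGF9 value -0.66 (adjusted p = 0.00304, limma).

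Most tissue isoforms of complex IV were low or listed at 0, whereas their widespread counterparts were high. COX4I2, the isoform of lung, and COX7A1, of muscle, were at 0, against means of 665 and 523 TPM in NG for COX4I1 and COX7A2, and COX7B2 was at 0 beside COX7B. COX6A2, of heart and skeletal muscle, was detected in all libraries. NG held 1.93, 3.77 and 4.49 TPM of COX6A2, HG 8.12, 5.24 and 1.92, si-FGF9 9.7, 6.94 and 10.4 and HG + OE-FGF9 4.61, 7.51 and 3.28. It rose by 1.22 in si-FGF9 versus NG on the log2 scale (adjusted p = 0.0164, limma), a call lost without the first NG library (0.95, adjusted p = 0.0750, limma), without the third si-FGF9 library (1.12, adjusted p = 0.0521, limma) and after the GC correction (0.85, adjusted p = 0.0571, limma). COX6B2, of testis, ranged from 0.49 to 3.62 TPM over the 12 libraries and passed in no comparison with all of them, but without the third HG library it was at -0.96 in HG versus NG (adjusted p = 0.0303, limma) and 1.15 between HG + OE-FGF9 and HG (adjusted p = 0.0439, limma). NDUFA4, a subunit of complex IV in spite of its name, was at 63.2 ± 8.87 TPM in NG and 134 ± 20.2 in si-FGF9 (SD, n = 3) and rose by 1.07 (adjusted p = 9.11e-05, limma). NDUFA4L2, its hypoxia-inducible relative, ranged from 0.64 to 0.95 TPM in NG and from 1.5 to 2.1 TPM in si-FGF9 and rose by 0.63 (adjusted p = 0.0348, limma), a call lost when any 1 of 5 libraries (the 3 of NG, the first and second of si-FGF9) was left out, with an adjusted p of 0.0520 to 0.106 (limma), and turned to -0.11 after the GC and length correction.

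Complex V, ATP synthase, couples a membrane rotor to the catalytic F1 head, where ATP5F1A and ATP5F1B alternate. Of the 5 F1 subunits, 1 was higher in HG versus NG, where 8.53% of all genes tested were higher. In si-FGF9 versus NG 3 were higher and 1 lower, where 11.6% of all genes were higher and 57.7% lower. ATP5F1D, in the central stalk that turns with the rotor, had the largest rise of any member in both comparisons. ATP5F1D stood at 37.3, 52.4 and 50.3 TPM in the NG libraries, 112, 167 and 119.8 with HG, 299, 271 and 319.9 with si-FGF9 and 197, 187 and 126 with HG + OE-FGF9. ATP5F1D rose by 1.49 on the log2 scale in HG versus NG (SE 0.21, adjusted p = 0.000694, limma). ATP5F1D rose by 2.65 on the log2 scale in si-FGF9 versus NG (SE 0.21, adjusted p = 4.64e-06, limma). All NG libraries lay below and all si-FGF9 libraries above every other library.

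The catalytic partners of the F1 head went apart in si-FGF9. NG held 543, 492 and 491 TPM of ATP5F1B, HG 478, 459 and 449, si-FGF9 1042, 1018 and 942 and HG + OE-FGF9 673, 667 and 605. ATP5F1B rose by 0.98 on the log2 scale in si-FGF9 versus NG (SE 0.10, adjusted p = 1.07e-05, limma). ATP5F1B rose by 0.49 on the log2 scale in HG + OE-FGF9 versus HG (SE 0.10, adjusted p = 0.0114, limma). ATP5F1B was at -0.14 in HG versus NG (adjusted p = 0.272, limma), and without the first or the second HG + OE-FGF9 library its adjusted p in HG + OE-FGF9 versus HG was 0.0927 or 0.0921 (limma). ATP5F1A stood at 192, 176 and 173 TPM in the NG libraries, 158, 119 and 121 with HG, 77.7, 83.2 and 76.1 with si-FGF9 and 88.5, 86.7 and 146 with HG + OE-FGF9. ATP5F1A fell by 1.18 on the log2 scale in si-FGF9 versus NG (SE 0.19, adjusted p = 0.000162, limma). By the median of ratios the ATP5F1A value was -0.14 (adjusted p = 0.417, limma), and after the GC and length correction it was 0.09. ATP5F1A was at -0.45 in HG versus NG (adjusted p = 0.0694, limma) and passed without the first HG library (-0.58, adjusted p = 0.0409, limma) or the third HG + OE-FGF9 library (adjusted p = 0.0127, limma). Without the third HG + OE-FGF9 library it was also lower with HG + OE-FGF9 than with HG (-0.58, adjusted p = 0.0166, limma).

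The c-ring of the rotor is built from a protein that ATP5MC1, ATP5MC2 and ATP5MC3 encode with the same mature sequence. NG held 131, 152 and 145 TPM of ATP5MC1, HG 336, 372 and 182, si-FGF9 237, 235 and 255 and HG + OE-FGF9 359, 355 and 328. ATP5MC2 stood at 363, 519.7 and 526 TPM in the NG libraries, 718, 847 and 654 with HG, 708, 733 and 836 with si-FGF9 and 635, 629 and 616 with HG + OE-FGF9. NG held 117, 126 and 135 TPM of ATP5MC3, HG 209, 197 and 114, si-FGF9 119, 127 and 126 and HG + OE-FGF9 160.04, 169 and 174. NG lay below every other library for ATP5MC1 and ATP5MC2, and ATP5MC3 overlapped between NG and both groups. ATP5MC1 rose by 0.99 in HG and 0.76 in si-FGF9, and ATP5MC2 by 0.67 and 0.71, on the log2 scale (adjusted p between 0.00129 and 0.00678, limma). ATP5MC3 was at 0.41 in HG and -0.02 in si-FGF9, neither past the threshold. Without the third HG library it passed in HG (0.68, adjusted p = 0.000328, limma), and by the median of ratios it was higher in si-FGF9 (1.02, adjusted p = 0.00268, limma). Of the 4 members of the peripheral stalk, which holds the F1 head still, ATP5PB fell by 1.05 in si-FGF9 (SE 0.24, adjusted p = 0.00194, limma) and the others ranged from 0.07 to 0.21. By the median of ratios ATP5PB was at -0.0036 (adjusted p = 0.990, limma), and after the GC correction and the GC and length correction it was at 0.22 and 0.33, with no call. Of the 5 tested small membrane subunits, 4 were higher in HG and 3 in si-FGF9, with 0 lower by limma in either, also at an unadjusted p under 0.05. Of all genes tested, 8.53% were higher and 40.5% lower in HG, and 11.6% and 57.7% in si-FGF9, by adjusted p.

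Because partner subunits are joined in fixed numbers in the complexes, their ratio within a library was computed for pairs chosen after their values were seen, so it is given with no test. The ratio of ATP5F1B to ATP5F1A was 2.82, 2.80 and 2.84 in NG, 3.02, 3.86 and 3.70 with HG, 13.4, 12.2 and 12.4 with si-FGF9 and 7.61, 7.70 and 4.14 with HG + OE-FGF9. The ratio of SDHA to SDHB was 0.740 ± 0.0333 in NG, 1.09 ± 0.240 with HG, 2.52 ± 0.286 with si-FGF9 and 1.16 ± 0.152 with HG + OE-FGF9 (SD, n = 3). That of UQCRC1 to UQCRC2 was 1.53 ± 0.0560, 3.33 ± 1.27, 4.06 ± 1.10 and 4.01 ± 0.739 in the same order. For each of these pairs, and for CYC1 to UQCRFS1, the 3 NG libraries lay below all others. The ratio of NDUFV1 to NDUFV2 overlapped between NG (0.531 to 0.661) and HG (0.590 to 0.967) and was 0.991 to 1.16 in si-FGF9. The ratio of NDUFS8 to NDUFS1 spanned the widest range, from 2.10 to 3.24 in NG, 9.66 to 25.7 with HG, 54.7 to 75.3 with si-FGF9 and 12.8 to 37.5 with HG + OE-FGF9. Ratios within a library do not depend on the scaling of libraries and do not show which partner changed, but they do depend on a GC correction. After it, si-FGF9 versus NG was at 0.26 for CYC1 and 0.78 for UQCRFS1, against 0.53 and -0.25 before. NDUFV1 was at 0.64 and NDUFV2 at 1.21, against 0.56 and -0.25 before. In that comparison ATP5F1B stayed above ATP5F1A, SDHA above SDHB, UQCRC1 above UQCRC2 and NDUFS8 above NDUFS1.

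**Figure D4:**
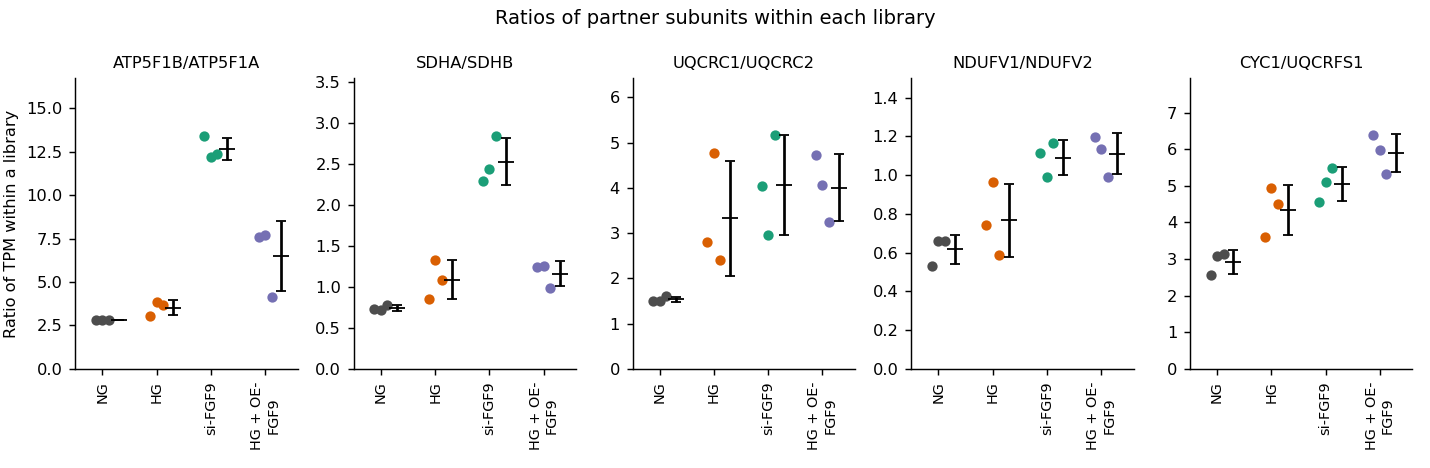
Ratio of the TPM of 2 partner subunits within each library (y axes, each from 0); points are the 3 libraries of a group and bars the mean ± SD. The ATP5F1B to ATP5F1A ratio stays near 2.82 in the 3 NG libraries and reaches 12.2 to 13.4 in si-FGF9, and NG has the lowest mean in every panel.

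The other genes of the pathway were counted in fixed lists, to be read against the shares of all genes given above. Of the 13 subunits encoded in mitochondrial DNA, 2 were higher and 2 lower in HG versus NG, and 0 were higher and 10 lower in si-FGF9 versus NG (limma, with 0 higher also at an unadjusted p under 0.05). Their summed level was 121194, 117422 and 127076 TPM in NG and 41422, 44140 and 79270 TPM in si-FGF9, where the third library stood apart from the other two. It was 107585 to 132777 TPM in HG and 120784 to 128964 TPM in HG + OE-FGF9, both ranges overlapping with NG. The sum of the nuclear members over that of the mitochondrially encoded subunits was 0.158 to 0.170 in NG, 0.185 to 0.249 with HG, 0.344 to 0.669 with si-FGF9 and 0.207 to 0.230 with HG + OE-FGF9. MT-ATP8 and MT-ND4L, which overlap MT-ATP6 and MT-ND4 so that reads may have been split, both fell by 4.62 on the log2 scale in si-FGF9 (adjusted p of 6.26e-06 and 4.73e-05, limma). With TPM rescaled without the genes of mitochondrial DNA, the members counted 35 higher and 7 lower in HG versus NG and 39 higher and 17 lower in si-FGF9 versus NG, where 8.45% of all genes were higher and 41.1% lower, and 9.87% and 60.7%. The 192 listed pseudogenes of members summed to 14.6 to 41.4 TPM per library.

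Of 51 assembly factors, which help build the complexes, 11 (21.6%) were higher and 9 (17.6%) lower in HG versus NG, and 11 (21.6%) were higher and 20 (39.2%) lower in si-FGF9 versus NG. Of 16 enzymes of the tricarboxylic acid cycle and pyruvate dehydrogenase, which supply the electrons, 0 were higher and 8 (50.0%) lower in HG (1 higher at an unadjusted p under 0.05, limma) and 1 was higher and 11 (68.8%) lower in si-FGF9. Of 12 carriers and related proteins, such as the adenine nucleotide exchangers, 2 were higher and 2 lower in HG and 2 were higher and 7 lower in si-FGF9, where the 58.3% lower was close to the 57.7% of all genes. Of 14 tested regulators of mitochondrial biogenesis, 1 was higher and 7 (50.0%) lower in HG, and 1 was higher and 11 (78.6%) lower in si-FGF9. The higher one was POLRMT, the mitochondrial RNA polymerase, which rose by 0.79 in HG and 2.11 in si-FGF9 on the log2 scale (adjusted p of 0.00735 and 8.48e-06, limma), and by 0.74 between HG and HG + OE-FGF9 (adjusted p = 0.0411, limma). TWNK, the mitochondrial DNA helicase, was the other regulator called higher with HG + OE-FGF9 than with HG, with a rise of 0.88 (adjusted p = 0.0381, limma), and was at -1.30 in si-FGF9 versus NG (adjusted p = 0.000369, limma). TFAM, the factor that packs mitochondrial DNA and starts its transcription, fell by 1.41 and 2.23 (adjusted p of 0.00712 and 0.000147, limma). For comparison, 42 of 78 cytosolic ribosomal protein genes were higher and 0 lower in HG versus NG, also at an unadjusted p under 0.05 (limma), and 58 were higher and 2 lower in si-FGF9 versus NG.

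Nuclear subunit genes often carry sites for NRF1, GABPA and YY1 in their promoters, and the RNA of these factors is part of the regulator list. GABPA was at 9.12, 9.50 and 8.83 TPM in NG, 2.5, 1.19 and 3.94 with HG, 1.34, 1.57 and 0.77 with si-FGF9 and 1.33, 1.12 and 2.15 with HG + OE-FGF9, and it fell by 1.60 in HG and 2.21 in si-FGF9 on the log2 scale (adjusted p of 0.00144 and 3.15e-05, limma). NRF1 was at 4.41, 4.03 and 4.48 TPM in NG and 1.62, 1.95 and 1.76 in si-FGF9 and fell by 0.94 there (adjusted p = 0.00461, limma), with -0.43 in HG (adjusted p = 0.167, limma). YY1 fell by 0.65 in HG and 1.56 in si-FGF9 (adjusted p of 0.0411 and 0.000113, limma).

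Promoters of 70 of the 90 members were matched by symbol in RefSeq (GRCh38.p14), each from 250 bases before to 50 bases after the gene start, and searched on both strands. The NRF1 motif, searched as GCGC, any base and then TGCGC, was found in 24.3% of these members and in 8.59% of all 15337 coding promoters. CCGGAAG, a form of the GABPA motif, was found in 28.6% and 14.4%, and AAGATGGCG, a form of the YY1 motif, in 11.4% and 2.80%. At least 1 of the 3 was found in 54.3% of the members and 23.0% of all promoters. By call in si-FGF9 versus NG, 21 of 35 higher, 6 of 13 lower and 10 of 20 uncalled members with a promoter held at least 1. A match is a run of letters in this window and not a bound site.

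The 200 bases before the gene start are shown for a member that rose and a member that fell in si-FGF9 versus NG in each of complexes I, II and III, 5′ to 3′ on the strand of the gene, with the matched letters of these motifs in capitals. NDUFA3 lies at chr19:54102655-54102854 (plus strand), NDUFS1 at chr2:206159445-206159644 (minus), SDHA at chr5:218120-218319 (plus), SDHD at chr11:112086673-112086872 (plus), UQCR11 at chr19:1605463-1605662 (minus) and UQCRC2 at chr16:21953161-21953360 (plus). The NRF1 letters stood in NDUFA3, SDHA, SDHD and UQCR11, and the GABPA letters in NDUFS1, SDHD and UQCR11, so that both kinds stood in members of either direction, and the window of UQCRC2 held no run of these letters.
NDUFA3: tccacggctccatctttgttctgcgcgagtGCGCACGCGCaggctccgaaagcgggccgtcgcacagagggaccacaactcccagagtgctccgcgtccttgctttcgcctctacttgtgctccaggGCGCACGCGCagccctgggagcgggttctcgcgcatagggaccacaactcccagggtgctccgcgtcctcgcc
NDUFS1: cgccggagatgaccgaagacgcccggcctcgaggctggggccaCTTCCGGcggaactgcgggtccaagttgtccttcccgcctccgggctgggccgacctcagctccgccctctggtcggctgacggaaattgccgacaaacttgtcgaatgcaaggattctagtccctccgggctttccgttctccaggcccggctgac
SDHA: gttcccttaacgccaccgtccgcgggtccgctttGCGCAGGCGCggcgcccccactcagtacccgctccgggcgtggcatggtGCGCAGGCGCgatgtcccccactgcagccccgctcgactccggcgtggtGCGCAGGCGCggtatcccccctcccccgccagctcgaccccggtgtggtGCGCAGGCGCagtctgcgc
SDHD: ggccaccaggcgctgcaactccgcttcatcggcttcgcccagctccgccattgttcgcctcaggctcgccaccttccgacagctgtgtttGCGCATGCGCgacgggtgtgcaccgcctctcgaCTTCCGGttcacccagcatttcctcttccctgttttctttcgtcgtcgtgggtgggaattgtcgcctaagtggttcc
UQCR11: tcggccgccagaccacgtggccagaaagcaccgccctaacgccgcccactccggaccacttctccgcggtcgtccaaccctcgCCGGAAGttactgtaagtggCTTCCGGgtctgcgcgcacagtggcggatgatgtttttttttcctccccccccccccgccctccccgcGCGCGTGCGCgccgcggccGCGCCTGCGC
UQCRC2: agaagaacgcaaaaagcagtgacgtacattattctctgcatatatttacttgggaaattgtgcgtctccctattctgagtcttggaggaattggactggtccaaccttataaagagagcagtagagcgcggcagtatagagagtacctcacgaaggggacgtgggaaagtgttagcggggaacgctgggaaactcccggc

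Fold change went with the base composition of the transcript among the members, as it did among all genes. Across the 85 tested members, which share libraries, Spearman's rho between log2 fold change and GC content of the longest transcript was 0.49 in HG versus NG, 0.45 in si-FGF9 versus NG and 0.46 in HG + OE-FGF9 versus HG. Across 14191 genes with an annotation it was 0.64, 0.57 and 0.29. Genes are not independent replicates, and these values are descriptions. The median GC content was 53.8% in members higher in HG and 42.8% in members lower in HG, and 53.3% and 43.8% in si-FGF9. With transcript length, rho among the members was -0.26, -0.19 and -0.12. NDUFA5 had the lowest GC content of the members tested (35.0%), NDUFS1 had a long transcript of 11819 bases, and ATP5F1D was at 63.9% GC. Exceptions were present, since ATP5MG, a membrane subunit of complex V, has a GC content of 37.6% and rose by 0.99 in HG and 1.10 in si-FGF9 on the log2 scale (adjusted p of 0.000612 and 2.04e-05, limma). The part of base composition in the results was not tested beyond the corrections given above, which also recentre each library.

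**Figure D5:**
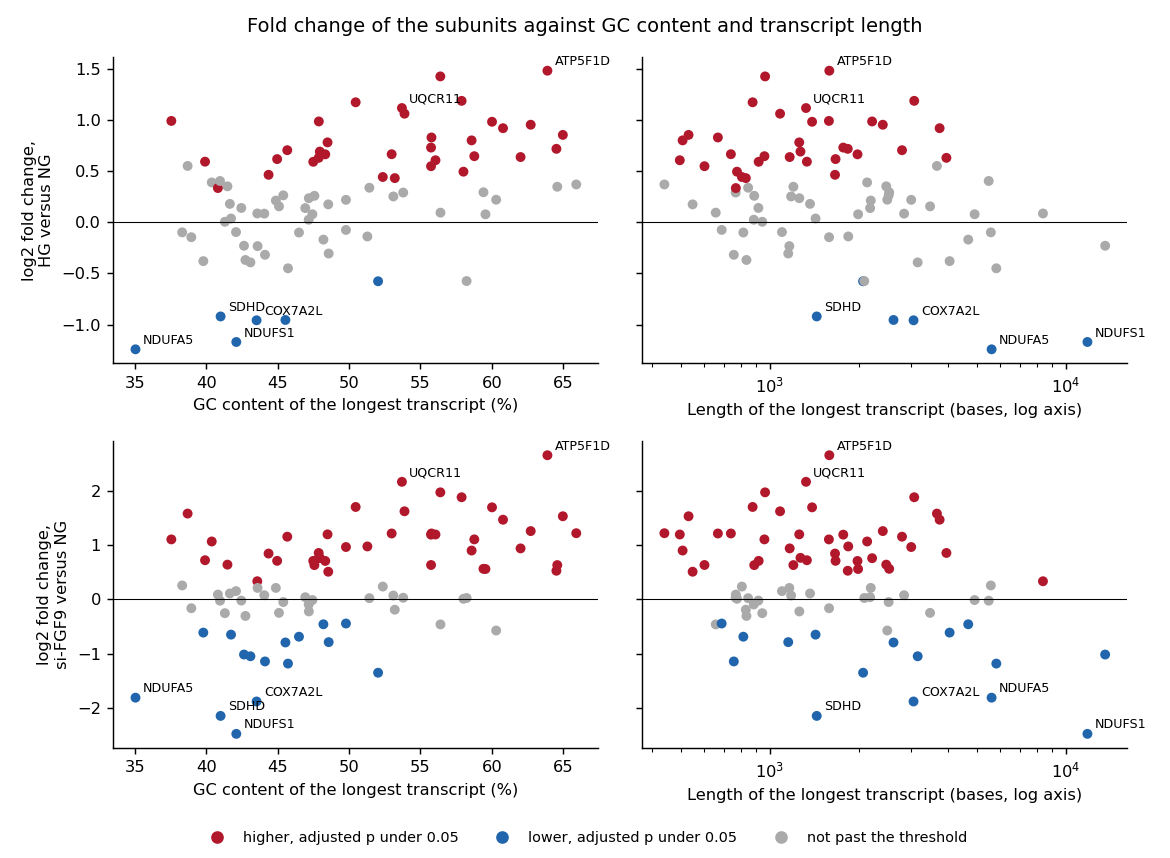
Log2 fold change of the 85 tested subunits (y axes) in HG versus NG (top) and si-FGF9 versus NG (bottom) against GC content (left, percent) and length (right, bases, log axis) of the longest transcript; red and blue points are higher and lower at an adjusted p under 0.05. Members lower than NG sit mainly at low GC content, with NDUFA5 at 35.0%, and ATP5F1D, the highest point, is at 63.9%.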

How the data were processed

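Total RNA of 12 HK2 libraries was sequenced, and the authors deposited 1 table per library with TPM values (length-corrected shares of the transcripts) for 62703 Ensembl genes. The submitters' processing notes list Bowtie 0.12.2 and mm8, a mouse build, without a role, although the gene identifiers are human. The quantification tool, annotation and use of strand are not given in the sources used here. TPM keep no depth, so no counting interval was computed, and a value of 0 is given as listed at 0.

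From these values log2(TPM + 1) was computed for the 14639 genes with at least 1 TPM in at least 3 libraries. A limma trend model (limma 3.58.1, R 4.3.3) with group as the only term was fitted to all 12 libraries, HG and si-FGF9 were each set against NG and HG + OE-FGF9 against HG, and p-values were adjusted by Benjamini-Hochberg over all genes tested. A gene was called at an adjusted p under 0.05, and the fold criterion of the study was applied beside it. Fold changes on this scale understate the change of low genes. An exact permutation test of 3 against 3 libraries cannot go below 0.1 and was not used for calls. The members and gene lists were chosen with earlier results of these data known. Named members were fixed catalytic and carrier subunits, fixed isoform pairs, the called member of each complex with the largest change in each direction and comparison, up to 3 per direction and comparison that passed both criteria, and those not tested. A named member is counted but not reported individually here. Others are said to be named after their values were seen. GC content, transcript length and gene type came from GENCODE 29 (GRCh38) by Ensembl identifier, with the longest transcript of a gene. This annotation covered 96.9% of the genes tested and all 90 members. Promoters came from RefSeq. The procedure was tested on simulated data. Alternatives were another pseudocount, no filter, a fit on 6 libraries, other scalings, GC and length corrections, a replicate block and leaving out each library.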

Additional observations from a re-analysis of the deposited data

How the results depend on the processing

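Fits in which each library was left out gave 26 to 42 members higher, 3 to 8 lower and a median log2 fold change of 0.21 to 0.35 in HG versus NG, 37 to 43, 14 to 16 and 0.26 to 0.41 in si-FGF9 versus NG. In the comparison of HG + OE-FGF9 with HG they gave 0 to 14, 0 to 4 and 0.0042 to 0.14. By median-of-ratios scaling HG versus NG had 61 higher, 3 lower and a median of 0.78, and si-FGF9 versus NG 69, 4 and 1.28. The GC correction gave 60, 1 and 0.70, and 62, 4 and 1.22. The GC and length correction gave 41 higher and 2 lower in HG versus NG, where 12.4% of all genes were higher and 11.4% lower. In si-FGF9 versus NG it gave 52 higher, 10 lower and a median of 0.76, where 25.6% of all genes were higher and 27.1% lower. In HG + OE-FGF9 versus HG it gave 7 higher and 3 lower, where 7.31% of all genes were higher and 7.81% lower. TPM without the mitochondrially encoded genes gave a median of 0.13 in si-FGF9 versus NG. The fit on the 6 libraries compared called 0 in HG + OE-FGF9 versus HG by limma, with 7 higher at an unadjusted p under 0.05. The study criterion gave 6 higher and 2 lower, 20 and 9, and 0 and 1 in the 3 comparisons. The cause of these changes was not tested.

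Correlations of same-numbered libraries ran from -0.16 to 0.25, so the numbers were not taken to pair them. With the replicate block the counts were 32 higher and 6 lower in HG versus NG, 39 and 15 in si-FGF9 versus NG, and 4 and 0 for HG + OE-FGF9 against HG. With the block and the GC correction together they were 60 and 0 (1 lower at an unadjusted p under 0.05, limma) with a median of 0.70, and 4 lower with a median of 1.22 in si-FGF9 versus NG. In that fit UQCRC2 in HG versus NG was at -0.37 (adjusted p = 0.0713, limma). Shares of all genes are not given here for the fits with a block or with a library left out.

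Among the named members, 26 values changed sign to or from a call, 79 lost and 54 gained a call, and 2298 kept both. In HG versus NG, NDUFA5 was at 0.0597 after the GC and length correction, SDHD at 0.0522 after the GC correction with or without the block, and UQCRH at 0.45 by the median of ratios. In si-FGF9 versus NG the median of ratios gave 1.02 for ATP5MC3, 1.03 for COX7A2, 0.25 for SDHB, 0.24 for UQCRC2, 0.76 for UQCRFS1 and 0.61 for UQCRH. The GC correction, with or without the block, gave 1.47 for ATP5MC3, 1.32 for COX7A2, 0.18 for UQCRC2, 0.78 for UQCRFS1 and 0.22 for UQCRH. The GC and length correction gave 0.0885 for ATP5F1A, 1.65 for ATP5MC3, -0.11 for NDUFA4L2, 0.0763 for NDUFA5, 0.25 for UQCRC2 and 1.00 for UQCRFS1. Tests on read counts were not run, because TPM hold no counts, and depth is unknown.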

Other observations

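The mitochondrial ribosome, which translates the subunits encoded in mitochondrial DNA, had 29 of 79 genes higher and 9 lower in HG versus NG, 27 higher and 31 lower in si-FGF9 versus NG, and 3 higher and 0 lower in HG + OE-FGF9 versus HG (3 lower at an unadjusted p under 0.05, limma). The proteasome, a nuclear-encoded complex outside mitochondria, had 9 of 38 higher and 7 lower, 5 higher and 15 lower, and 1 higher and 0 lower (0 also at an unadjusted p under 0.05, limma) in the same comparisons. Of all genes tested, 8.53% were higher and 40.5% lower, 11.6% and 57.7%, and 4.82% and 4.71% in these comparisons. The median log2 fold changes were 0.21, -0.01 and 0.15 for the mitochondrial ribosome and 0.06, -0.06 and 0.04 for the proteasome, against 0.29, 0.26 and 0.06 for the respiratory chain members and -0.39, -0.79 and -0.13 for all genes tested.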
